A study of Arabidopsis thaliana with 39 samples.

Results

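Autophagy carries cytoplasmic material to the vacuole inside a membrane sac, the autophagosome, and the core autophagy genes encode the proteins that build this sac. The set described here holds 43 of the 33110 genes of the count table. It was taken by gene name and not by a measured value: *ATG1* to *ATG16* with all their copies, *ATG101*, the families *ATG8A* to *ATG8I* and *ATG18A* to *ATG18H*, the lipid kinase genes *VPS34* and *VPS15*, and the cargo receptor genes *NBR1* and *ATI1*. The levels of 42 of the 43 passed the filter on low counts. *ATG18E* did not, with 0 to 10 counts in a library, and it is left out of every count below.

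The machinery works in steps. A kinase complex (ATG1, ATG13, ATG11, ATG101) starts the sac, ATG9, ATG2 and the ATG18 proteins bring membrane to it, and a lipid kinase complex (VPS34, VPS15, ATG6, ATG14) marks that membrane. ATG8, a small ubiquitin-like protein, is then trimmed by ATG4 and joined to the lipid of the sac by ATG7 and ATG3, with the help of the ATG12, ATG5 and ATG16 conjugate that ATG10 forms, and receptors such as NBR1 bind ATG8 and bring in cargo. In leaves this pathway is known for recycling nutrients during starvation and senescence.

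The transcripts were measured in rosettes of *Arabidopsis thaliana* to find what the transcription factor SLIM1 (EIL3, AT1G73730) does when nutrients suffice. The study grew Col-0 plants, the knockout *slim1-cr*, and a pair of independent overexpressors, *35S::SLIM1 #17* and *#25*, all in the Col-0 background, and harvested single rosettes at 30, 37 and 44 days after sowing (DAS). The empty vector line *EV* was sampled at 30 DAS only. Each of the 13 groups of genotype and age has 3 replicates, 39 libraries in all.

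In *slim1-cr*, a CRISPR/Cas9 deletion removes the part of *SLIM1* that codes for DNA binding, and the 3′ part of the gene is intact. The overexpressors are single-insert homozygous T2 lines that carry *SLIM1* behind the constitutive CaMV 35S promoter in the vector pH7WG2, so each line is 1 insertion event, and the transgene is not limited to leaf cells. Their seedlings were selected on hygromycin. *EV* carries pH7WG2 without the gene. All plants were moved from agar plates to soil, and stalks and reproductive tissue were taken off just before harvest.

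Libraries held 38.4 to 46.2 M counts. Levels are given as CPM, the gene's counts scaled by the size of its library with TMM factors over all libraries. *SLIM1* stood at 18.1 to 22.9 CPM in Col-0, 19.8 to 22.4 in *EV* and 0.669 to 2.59 in *slim1-cr*. It stood at 141 to 356 CPM in *#17* and 82.3 to 325 in *#25*. Knockout and overexpressor libraries thus stood apart from Col-0 and *EV* as labelled. The ranges of Col-0 and *EV* overlapped, as did those of *#17* and *#25* over all ages, and age was not checked this way. Transgene reads count to the same gene, and reads from the deleted part are lost in *slim1-cr*. The leaf markers *RBCS1A*, *RCA*, *LHCB1.1* and *LHCB2.1* summed to 5341 to 40729 CPM, and 2 seed storage genes to at most 0.400 CPM. The 11 flower organ markers summed to 3.82 to 63.1 CPM (median 18.4) and were highest in *EV* replicate 3. Rosettes are mixed tissue, so fewer cells of a type and less RNA per cell cannot be told apart.

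The 9 *ATG8* genes are shown first, because the largest difference from Col-0 lay in this family in *#17* at 37 DAS and in each overexpressor at 44 DAS. ATG4 cuts the ATG8 precursor after a glycine, which then takes the lipid. The ends of the 9 coding sequences (36 bases each, stop codon included, from the RefSeq TAIR10.1 genome, 5′ to 3′ on the gene's strand) show how much lies behind that glycine, whose codon is in capitals.
ATG8A: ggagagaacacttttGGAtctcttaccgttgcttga
ATG8B: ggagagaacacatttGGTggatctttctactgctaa
ATG8C: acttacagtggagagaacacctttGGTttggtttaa
ATG8D: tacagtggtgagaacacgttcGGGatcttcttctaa
ATG8E: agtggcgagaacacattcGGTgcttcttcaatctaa
ATG8F: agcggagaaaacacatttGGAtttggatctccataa
ATG8G: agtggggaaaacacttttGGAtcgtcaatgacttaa
ATG8H: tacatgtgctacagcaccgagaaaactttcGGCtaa
ATG8I: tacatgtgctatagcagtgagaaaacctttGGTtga
They lie, in this order, at chr4:11656774-11656809 (plus strand), chr4:2328663-2328698 (minus), chr1:22934218-22934253 (plus), chr2:2083211-2083246 (minus), chr2:18625491-18625526 (plus), chr4:9306882-9306917 (minus), chr3:22416936-22416971 (plus), chr3:1955219-1955254 (minus) and chr3:5274075-5274110 (minus). *ATG8A* and *ATG8B* have 5 codons behind the glycine, *ATG8E*, *ATG8F* and *ATG8G* have 4, *ATG8D* has 3 and *ATG8C* has 2. *ATG8H* and *ATG8I* have 0, so that their glycine is already the last residue. Coding sequences of the family were 47.5 to 77.7% identical between pairs, and the longest run that any pair shares exactly is 53 bases (*ATG8A* and *ATG8B*). How reads that fit several genes were counted is not given in the sources used here.

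Over all 39 libraries the receptor gene *NBR1* stood highest among the 43 genes, at 127 CPM per kb of exon, followed by *ATG8F* at 81.6, *ATG8E* at 59.2, *ATG8I* at 49.5, *ATI1* at 46.7 and *ATG8A* at 46.2 CPM per kb. *ATG18D* was the lowest gene that was tested, at 2.64 CPM per kb, after *ATG12B* at 3.74. The mean of the highest group was 1.26 to 6.04 times that of the lowest over the 42 genes, with a median of 2.12. *ATG8E* varied most (6.04 times) and *ATG8B* came next (5.50 times), while *ATG10*, the enzyme that joins ATG12 to ATG5, varied least (1.26 times). For 20 of the 42 genes the highest of the 13 groups was *#25* at 44 DAS, and for 8 it was Col-0 at 44 DAS. The lowest group was *slim1-cr* at 37 DAS for 13 genes and *slim1-cr* at 30 DAS for 12.

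**Figure D1:**
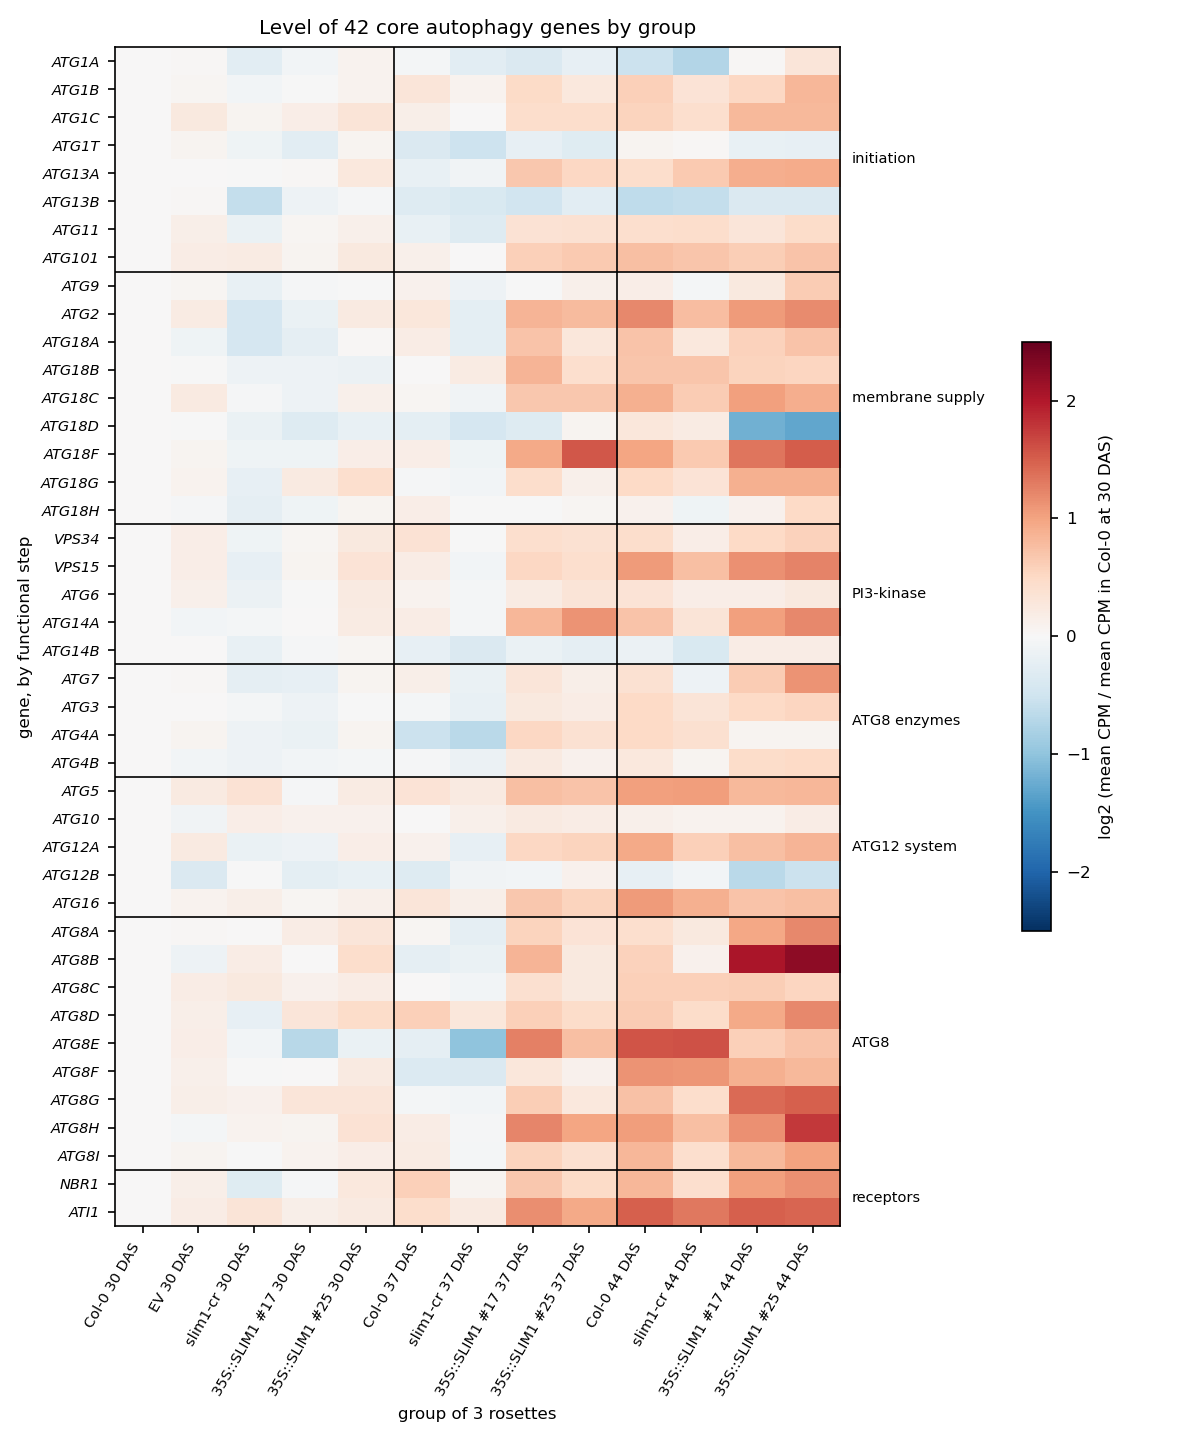
Mean level of the 42 tested genes (rows, by functional step) in the 13 groups (columns), as log2 of the group's mean CPM over the mean CPM of Col-0 at 30 DAS. Columns at 44 DAS are mostly red, with *ATG8E* (109 CPM in Col-0) and *ATG8F* strongest in Col-0 and *slim1-cr* and *ATG8B* strongest in the overexpressors, where *ATG18D* is blue.

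The age change in Col-0 is the background for the comparisons between genotypes. From 37 to 44 DAS, 31 of the 42 genes rose and 2 fell (edgeR's quasi-likelihood test, adjusted p below 0.05 over all genes tested), against 24.5% of all genes that rose and 26.8% that fell. Their median log2 fold change (log2FC) was 0.54, and that of all genes tested was -0.04. The rise covered every step: 6 of 8 initiation genes (with the 2 that fell, *ATG1A* and *ATG13B*), 7 of 9 genes of membrane supply, 3 of 5 of the lipid kinase complex, 3 of 4 ATG8 enzymes, 3 of 5 of the ATG12 system, 8 of 9 *ATG8* genes, and *ATI1* of the 2 receptors. Age, harvest day and any batch of that day cannot be told apart here.

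The 5 largest changes in Col-0 were those of *ATG8E*, *ATG8F*, *ATI1*, *ATG4A* and *ATG2*. *ATG8E* stood at 32.4, 38.8 and 22.7 CPM in the 3 Col-0 libraries of 37 DAS and at 114, 114 and 100.1 CPM in those of 44 DAS. All 3 older libraries lay far above all 3 younger ones, a log2FC of 1.80 (SE 0.22, adjusted p = 1.27e-07). *ATG8F* went from 85.6 to 95.7 CPM up to 236 to 266 CPM (log2FC 1.45, SE 0.13, adjusted p = 1.54e-09). *ATI1*, whose product marks bodies that leave the endoplasmic reticulum and plastids, went from 42.7, 58.1 and 52.3 CPM to 102, 109 and 107 CPM (log2FC 1.06, SE 0.14). *ATG4A*, the protease that trims ATG8, had a log2FC of 1.02 (SE 0.10) and *ATG2*, known in yeast and animals as a lipid transfer protein, of 0.92 (SE 0.16). None of these 5 had overlapping libraries between the days, but they were picked by the size of this same change, so that is no further result.

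The same step in *slim1-cr* raised 30 of the 42 genes and lowered 1 (all genes: 21.4% rose, 20.2% fell), with a median log2FC of 0.49. *ATG8E* went from 16.2, 22.4 and 16.6 CPM to 128, 120.0 and 85.9 CPM there (log2FC 2.60, SE 0.22, adjusted p = 7.77e-10). From 30 to 37 DAS fewer of the genes moved in these genotypes: in Col-0, 7 rose and 4 fell (all genes: 19.8% and 16%), and in *slim1-cr*, 2 rose and 4 fell (all genes: 8.02% and 5.6%). With library size alone in place of TMM the Col-0 counts became 15 and 1 and those of *slim1-cr* 3 and 2, and without Col-0 replicate 2 of 37 DAS only 3 genes were called in Col-0.

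More of the genes were called from 30 to 37 DAS in *#17* than in Col-0 or *slim1-cr*. In *#25* 16 were called (10 to 13 with 1 library left out), beside 11 in Col-0 (3 to 9). Taking both directions together, the *#25* count was near the share over all genes. From 30 to 37 DAS, 30 genes rose and 2 fell in *#17* (all genes: 30.4% and 29.9%), with a median log2FC of 0.40, and 13 rose and 3 fell in *#25* (all genes: 19.1% and 13.8%), with a median of 0.18. From 37 to 44 DAS a further 16 changes upward and 5 downward were called in *#17* (all genes: 20.2% and 26.8%), and 24 and 3 in *#25* (all genes: 29.3% and 36.5%). *ATG8E* went up by 1.96 on the log2 scale in *#17* and 0.93 in *#25* from 30 to 37 DAS, and fell by 0.66 in *#17* from 37 to 44 DAS. The count for *#17* from 37 to 44 DAS dropped from 21 to 11 without *#17* replicate 3 of 37 DAS, and that for *#25* from 30 to 37 DAS from 16 to 10 without *#25* replicate 1 of 30 DAS.

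At 30 DAS few of the genes passed the test between genotypes. *ATG8B*, for example, stood at 12.6, 10.99 and 12.8 CPM in Col-0, 12.8, 11.3 and 12.4 CPM in *#17* and 18.4, 17.5 and 13.7 CPM in *#25*, where its excess was not called. In *EV* 0 of 42 were called against Col-0 (all genes: 0% either way), with 2 at an unadjusted p below 0.05 and 0 by DESeq2. For *#17* edgeR called 0 genes (all genes: 3.79% higher, 3.17% lower), with 2 unadjusted and 1 by DESeq2. For *#25* it also called 0 (all genes: 3.55% and 2.83%), with 7 unadjusted and 5, all higher, by DESeq2. The median log2FC of the 42 genes in *#25* was 0.18, with 36 above 0, and it was -0.01 in *#17*. Between the overexpressors directly, 0 genes were called (all genes: 0.735% and 0.957%), with 11 unadjusted and 0 by DESeq2. Without *#17* replicate 3 that last count was 4, all higher in *#25*.

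The knockout lay a little below Col-0 in most of these genes on all 3 days, with few calls. At 30 DAS 1 library, *slim1-cr* replicate 3, weighed on this: without it 3 genes were called higher and 2 lower. The median log2FC of the 42 genes against Col-0 was -0.10 at 30 DAS, -0.17 at 37 DAS and -0.16 at 44 DAS, against 0.01, -0.01 and 0.03 over all genes tested, and 12, 5 and 9 of the 42 values were above 0. Counts of calls were 2 lower at 30 DAS (all genes: 2.63% higher, 2.12% lower), 2 lower at 37 DAS (1.4% and 4.14%) and 1 lower at 44 DAS (6.21% and 3.97%). With every library kept, 0 of the 42 were called higher on any day. DESeq2 called 2, 7 and 5 lower and 0 higher.

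*ATG13B*, a subunit of the initiation kinase complex, stood at 7.09, 7.91 and 7.58 CPM in *slim1-cr* at 30 DAS and at 11.5, 12.9 and 9.67 CPM in Col-0. The 2 groups did not overlap (log2FC -0.58, SE 0.12, adjusted p = 0.0201). *ATG18A*, which binds the marked membrane, was lower at 30 DAS (log2FC -0.41, SE 0.10, adjusted p = 0.0388) and again at 37 DAS, when *slim1-cr* had 27.3, 25.9 and 27.2 CPM and Col-0 35.1, 36.6 and 37.4 CPM (log2FC -0.45, SE 0.08, adjusted p = 0.0189). *NBR1*, the receptor for ubiquitinated cargo, stood at 259.7, 284 and 247 CPM in *slim1-cr* at 37 DAS, below the 391, 404 and 345 CPM of Col-0 (log2FC -0.54, SE 0.13, adjusted p = 0.0383). At 44 DAS *ATG2* was lower (82.5, 95.4 and 66.9 CPM against 105, 115 and 112 CPM, log2FC -0.42, SE 0.12, adjusted p = 0.0487).

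These 5 calls were close to the threshold. All except *ATG2* stood under RLE factors and without the filter, and all 5 were lost in a fit of the compared groups only. That of *ATG13B* was also lost without Col-0 replicate 1 or 2 or *slim1-cr* replicate 1 (range over alternatives -0.69 to -0.48). *ATG18A* at 30 DAS lost its call without the same libraries or *slim1-cr* replicate 2, under library size alone, with the replicate block and with *EV* in place of Col-0 (-0.49 to -0.30), and at 37 DAS without Col-0 replicate 2 or *slim1-cr* replicate 1 or 3 (-0.48 to -0.44). *NBR1* lost it without any 1 library of either group except *slim1-cr* replicate 2 (-0.61 to -0.49). *ATG2* lost it without Col-0 replicate 2 or 3 or *slim1-cr* replicate 1 or 3, under RLE factors, under library size alone, without the filter and with the replicate block (-0.54 to -0.31). The values stayed below 0 in each of these alternatives.

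At 37 DAS the overexpressors stood above Col-0 in many of the genes. In *#17*, 26 were higher and 1 lower (all genes: 19.8% and 17%), with a median log2FC of 0.39 beside -0.02 over all genes. In *#25*, 18 were higher and 0 lower (all genes: 12.5% and 9.74%), with a median of 0.26 beside -0.01. The lines share the Col-0 libraries, so these are not independent counts. The study reports earlier bolting in the overexpressors than in the other genotypes, and proposes that they also enter senescence earlier. Plants harvested on the same day may thus differ in developmental stage. Genotype and stage cannot be told apart within a day, and the part of stage in these differences was not tested at any age. By step, *#17* had 4 of 8 initiation genes higher, 6 of 9 of membrane supply, 2 of 5 of the lipid kinase complex, 2 of 4 ATG8 enzymes, 3 of 5 of the ATG12 system, 8 of 9 *ATG8* genes and 1 of 2 receptors. The same counts in *#25* were 4, 2, 1, 2, 2, 6 and 1. Without Col-0 replicate 3 the totals were 22 in *#17* and 12 in *#25*.

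**Figure D2:**
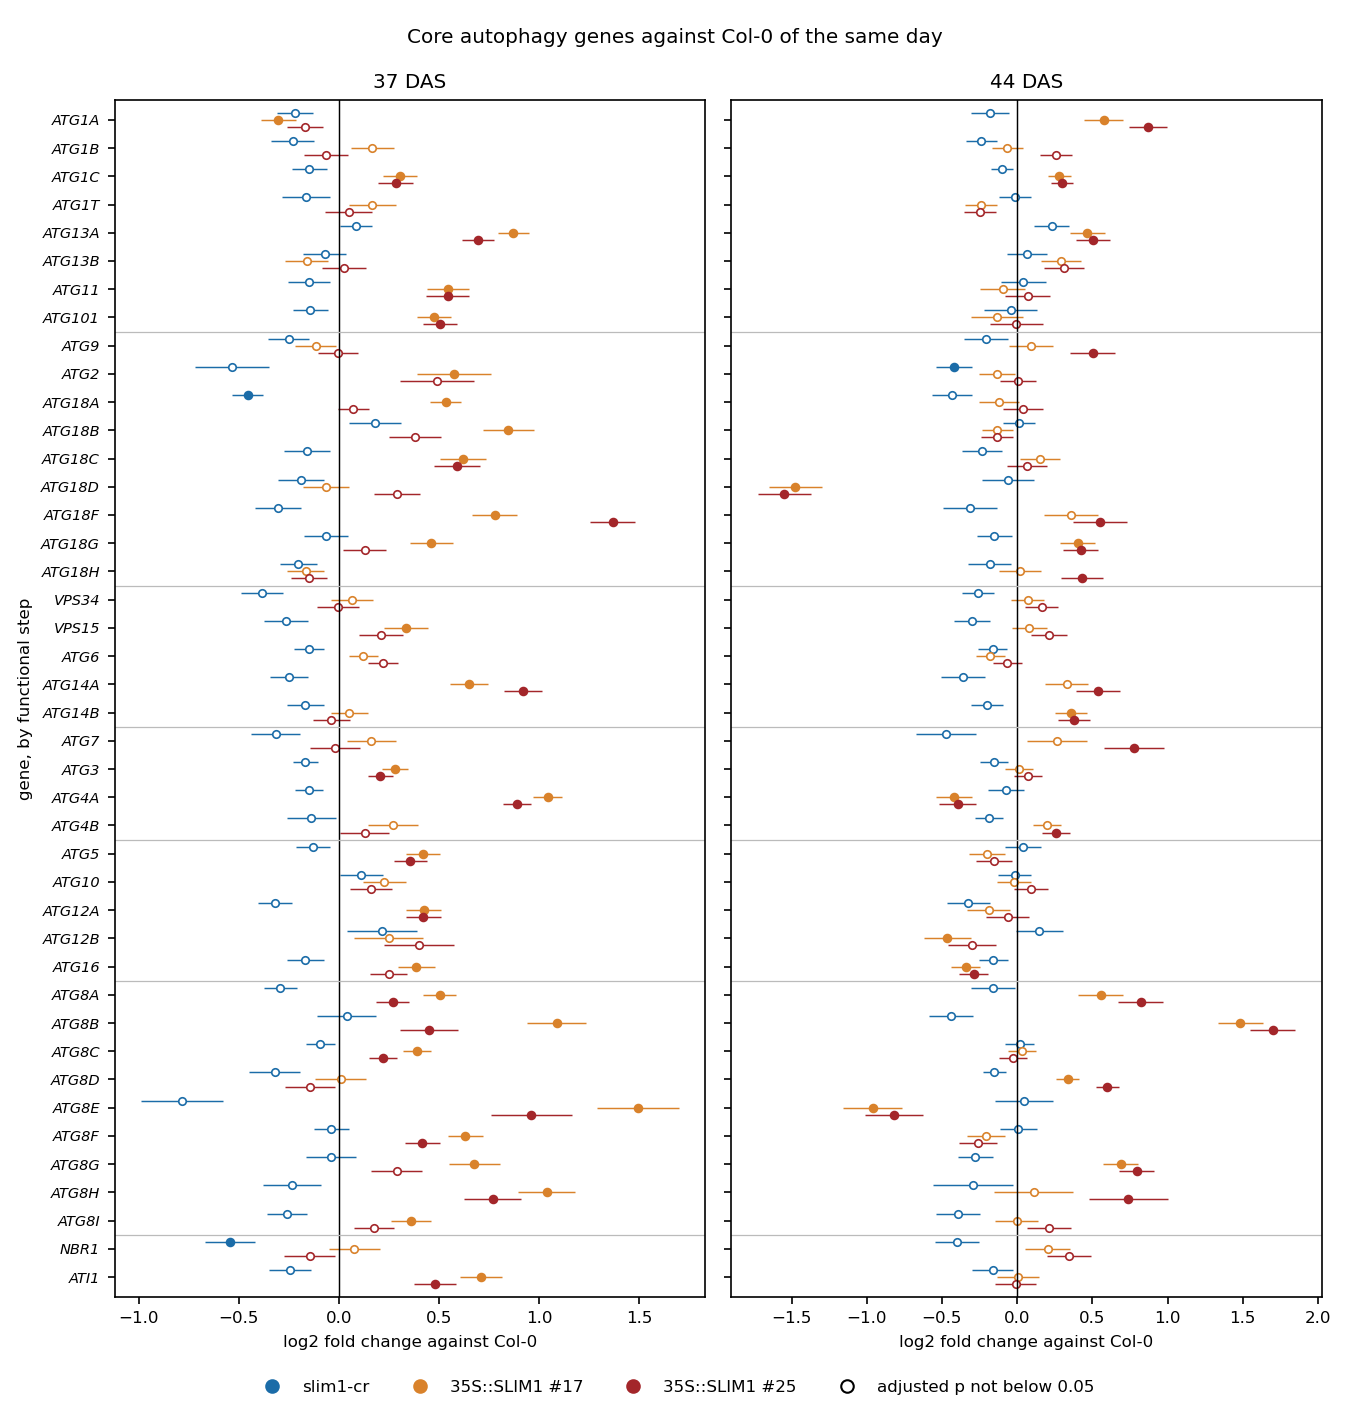
Log2FC against Col-0 of the same day (x axis, bars are the SE) for the 42 genes (rows, by functional step) at 37 DAS (left) and 44 DAS (right) in *slim1-cr*, *#17* and *#25*. Filled points passed the test: in *#17*, 26 higher and 1 lower at 37 DAS, and 9 higher and 5 lower at 44 DAS, when *ATG8E*, *ATG4A* and *ATG18D* lie left of 0.

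Among the initiation genes, *ATG13A* stood at 29.0, 26.3 and 24.7 CPM in Col-0 at 37 DAS, at 50.8, 49.6 and 45.6 CPM in *#17* and at 42.1, 45.2 and 44.0 CPM in *#25*. Every library of either line lay above every Col-0 library, with log2FC of 0.87 (SE 0.08, adjusted p = 6.56e-05) and 0.69 (SE 0.08, adjusted p = 0.000164). *slim1-cr*, at 27.6 to 29.4 CPM, did not stand apart from Col-0. *ATG11*, the scaffold of the complex, was higher by 0.54 (SE 0.11) in each line, at 54.4 to 59.2 CPM in *#17* and 52.4 to 61.0 CPM in *#25* beside 35.2 to 41.9 CPM in Col-0, and *ATG101*, which stabilizes ATG13 in animals, by 0.47 and 0.50 (SE 0.09 in each). *ATG1C*, a copy of the kinase, was higher by 0.31 and 0.28. *ATG1A*, the other main copy, was the only gene called lower in *#17* (24.8 to 29.2 CPM beside 32.2 to 35.4 CPM, log2FC -0.30, SE 0.09, adjusted p = 0.0219), a call lost without Col-0 replicate 3 or *#17* replicate 1 and with the compared groups only (-0.37 to -0.24).

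The genes of membrane supply split within the *ATG18* family. *ATG18F* stood at 23.7, 22.0 and 21.1 CPM in Col-0 at 37 DAS, at 38.3, 40.6 and 35.3 CPM in *#17* and at 50.3, 66.8 and 57.4 CPM in *#25*. The 3 groups did not overlap, and *#25* exceeded *#17* in a direct test (log2FC 0.59, SE 0.11, adjusted p = 0.0142). The excess over Col-0 was 0.78 on the log2 scale (adjusted p = 0.000686, SE 0.11) for *#17* and 1.37 (SE 0.11, adjusted p = 2.64e-05). The order was the other way for *ATG18A* (48.3 to 57.5 CPM in *#17*, 37.4 to 39.8 CPM in *#25*, log2FC of *#25* against *#17* -0.46, SE 0.08, adjusted p = 0.00857) and *ATG18B* (-0.47, SE 0.13, adjusted p = 0.0496). *ATG18C* was higher in each line (log2FC 0.62 and 0.59, SE 0.11 in each). *ATG18A* (0.53), *ATG18B* (0.85), *ATG18G* (0.46) and *ATG2* (0.58) were called in *#17* only, *ATG2* not under library size alone or without Col-0 replicate 1 or 3 or *#17* replicate 1 or 2 (0.50 to 0.68). *ATG18D*, *ATG18H* and *ATG9*, a membrane-spanning protein carried by vesicles, were not called in either.

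The direct comparison of the lines at 37 DAS called 4 genes, 1 higher and 3 lower in *#25* (all genes: 3.9% and 4.35%). The fourth was *ATG8B* (log2FC -0.64, SE 0.15, adjusted p = 0.0269). Leaving out 1 library gave 1 (without *#17* replicate 1) to 8 calls (without *#17* replicate 3), and DESeq2 called 3 higher and 5 lower.

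In the lipid kinase complex *ATG14A*, the subunit that directs the kinase to autophagy in yeast and animals, stood at 10.2, 11.5 and 9.49 CPM in Col-0 at 37 DAS. It reached 16.2, 16.8 and 15.8 CPM in *#17* and 18.8, 21.5 and 19.5 CPM in *#25*. Both lines lay above all Col-0 libraries, with log2FC against Col-0 of 0.65 (SE 0.09, adjusted p = 0.000713) and 0.92 (SE 0.10, adjusted p = 9.41e-05), and the lines did not pass the direct test against each other (log2FC 0.27, SE 0.09, adjusted p = 0.0917). *VPS34*, *ATG6* and *ATG14B* were not called in either line, and *VPS15* was called in *#17* alone (log2FC 0.34, SE 0.11, adjusted p = 0.0349), a call lost under library size alone, with the compared groups only and without Col-0 replicate 1 or 3 or *#17* replicate 1 or 2 (0.26 to 0.39).

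Among the ATG8 enzymes *ATG4A* stood at 30.4, 29.8 and 28.8 CPM in Col-0 at 37 DAS, at 66.2, 56.4 and 60.4 CPM in *#17* and at 54.1, 55.3 and 57.7 CPM in *#25*. The lines lay at about the same height, and no library came near those of Col-0 or *slim1-cr* (26.8 to 27.4 CPM). The log2FC were 1.04 (SE 0.07, adjusted p = 1.41e-05) and 0.89 (SE 0.07, adjusted p = 1.92e-05). *ATG4B*, its copy, was not called, so that *ATG4A* made up 55.7% ± 3.90 (SD, n = 3) of the summed *ATG4* level per kb in *#17* and 55.4% ± 3.03 in *#25*, beside 42.3% ± 1.48 in Col-0. *ATG3*, the enzyme that passes ATG8 to its lipid, was higher by 0.28 and 0.21 (SE 0.06 in each), and *ATG7*, which activates ATG8 and ATG12, was not called.

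*ATG4A* shares 42.55% of its exon bases with a gene on the other strand, AT2G44130. The kit keeps strand, but whether the counting used it is not given in the sources used here, so reads of the pair may not be told apart. AT2G44130 was at 0 in all Col-0 libraries of 37 DAS, at 0 to 11.1 CPM in *#17* and at 0 to 16.0 CPM in *#25*. At 44 DAS it was at 0 in both overexpressors and at 0.0586 to 12.3 CPM in Col-0. Its part in the *ATG4A* values was not tested. *ATG11* likewise shares 13.02% of its exon bases with AT4G30780 on the other strand. At 37 DAS the mean of AT4G30780 was 35.8 CPM in *#17* and 29.3 in *#25* beside 27.7 in Col-0, called in neither line. The part of AT4G30780 in the *ATG11* values was not tested either.

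In the ATG12 system, 3 of 5 genes were called in *#17* and 2 of 5 in *#25* at 37 DAS. *ATG5* was higher by 0.42 and 0.36 (SE 0.08 in each) and *ATG12A* by 0.42 in each line (SE 0.09), while *ATG10* and *ATG12B* were not called. *ATG16*, which places the conjugate on the membrane, was called in *#17* only (log2FC 0.39, SE 0.09, adjusted p = 0.00917). *ATG5* shares 27.58% of its exon bases with AT5G17280 on the other strand, which was higher in *#17* and lower in *#25* at that age. Of the receptors *ATI1* was higher, at 85.5, 80.1 and 84.6 CPM in *#17* and 71.8, 75.0 and 69.7 CPM in *#25* (log2FC 0.71, SE 0.11, adjusted p = 0.000761, and 0.48, SE 0.10, adjusted p = 0.00817), above all Col-0 libraries. *NBR1* was not called in either line, at 353 to 430.5 CPM and 313 to 386 CPM beside 345 to 404 CPM in Col-0.

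**Figure D3:**
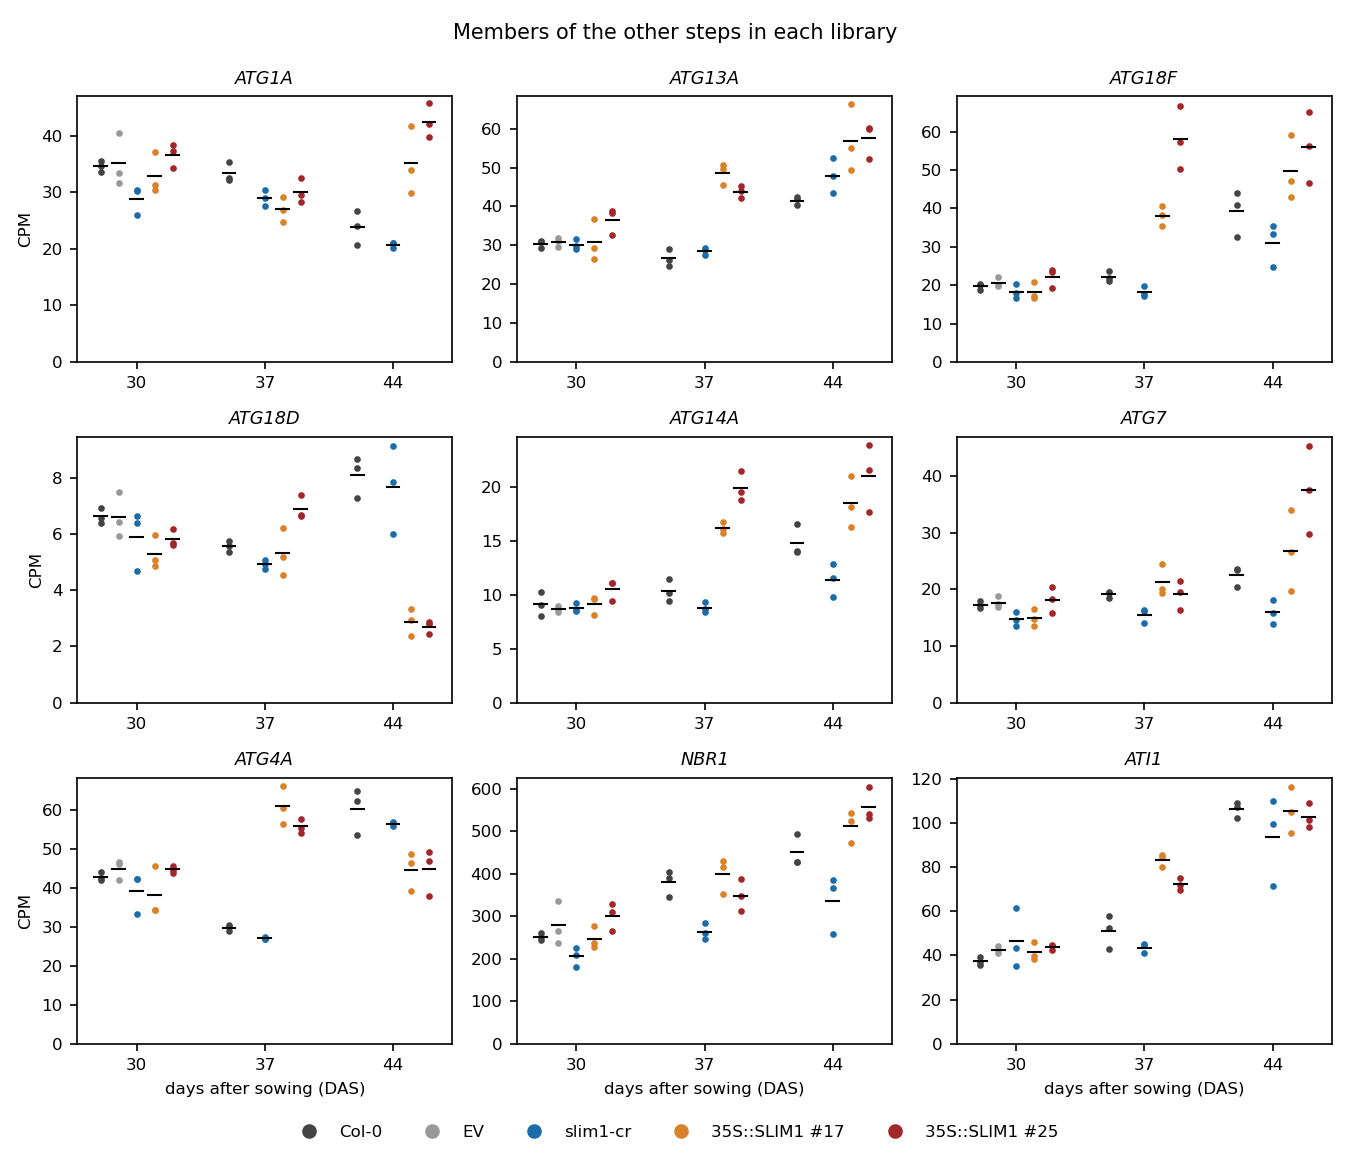
CPM in each library (points, 3 a group, black bars are means) of 9 genes of the other steps by age and genotype. *ATG13A*, *ATG18F*, *ATG14A*, *ATG4A* and *ATI1* stand apart in the overexpressors at 37 DAS, and *ATG1A* above and *ATG18D* below Col-0 at 44 DAS.

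The *ATG8* genes showed the broadest difference at 37 DAS, with 8 of 9 higher in *#17* and 6 of 9 in *#25*. *ATG8E* (AT2G45170, chromosome 2, 18624264 to 18625791, plus strand) stood at 87.3, 74.0 and 103 CPM in *#17* and 61.9, 55.4 and 68.5 CPM in *#25*, beside 32.4, 38.8 and 22.7 CPM for Col-0 and 16.2, 22.4 and 16.6 CPM for *slim1-cr*. The lines stood clear of Col-0, with log2FC of 1.49 (SE 0.20, adjusted p = 0.000524) and 0.96 (SE 0.20, adjusted p = 0.00677), while *slim1-cr* lay just under the lowest Col-0 library and was not called. The lines did not pass the direct test against each other (log2FC -0.53, SE 0.20, adjusted p = 0.116). *ATG8H*, whose glycine is already free, stood at 13.6, 15.7 and 17.2 CPM and 11.1, 16.1 and 12.1 CPM beside 7.42, 8.29 and 7.003 CPM (log2FC 1.04 and 0.77, SE 0.14 in each). The lines lay above Col-0 in all libraries.

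*ATG8B* was at 23.8, 25.2 and 17.1 CPM in *#17* and 13.6, 16.1 and 13.5 CPM in *#25*, beside 10.3, 10.7 and 10.3 CPM in Col-0. It passed the test in *#17* (log2FC 1.09, SE 0.15, adjusted p = 0.000474), and in *#25* at 0.45 (SE 0.15, adjusted p = 0.0498), a call lost without any 1 of the 6 libraries, under library size alone, without the filter, with the replicate block and with the flower marker covariate (0.33 to 0.50). *ATG8F* was higher by 0.63 and 0.42 (SE 0.09 in each), *ATG8A* by 0.50 and 0.27 (SE 0.08) and *ATG8C* by 0.39 and 0.22 (SE 0.07). The last call in *#25* was lost in 11 of 15 alternatives, among them each left-out library, library size alone and the replicate block (0.10 to 0.25). That of *ATG8A* in *#25* was lost in 9 of 15: without Col-0 replicate 2 or 3 or *#25* replicate 2 or 3, under library size alone, with the replicate block, with the flower marker covariate, with the compared groups only and with all 39 libraries in 1 fit (0.15 to 0.31). *ATG8G* (log2FC 0.68, SE 0.13) and *ATG8I* (0.36, SE 0.10) were called in *#17* only, the latter not without Col-0 replicate 3 or *#17* replicate 1, under library size alone or with the compared groups only, and *ATG8D* in neither line.

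**Figure D4:**
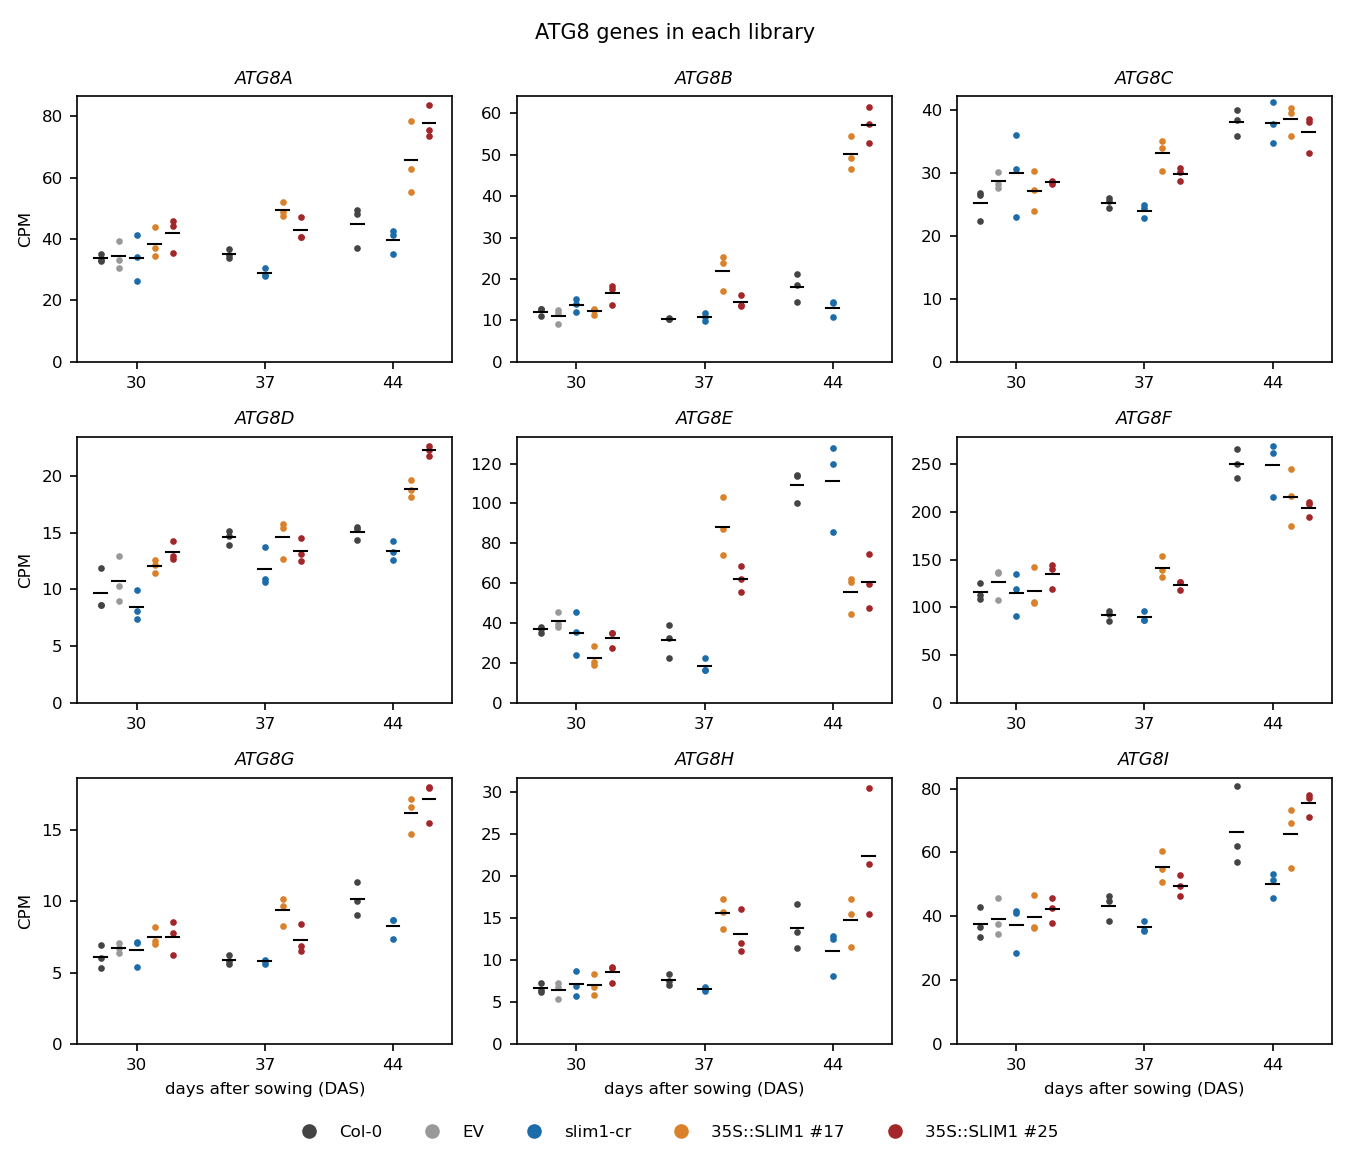
CPM in each library (points, 3 a group, black bars are means) of the 9 *ATG8* genes by age and genotype. *ATG8E* is above Col-0 in the overexpressors at 37 DAS (55.4 to 103 CPM) and below it at 44 DAS (44.7 to 74.6 CPM), and *ATG8B* is highest in the overexpressors at 44 DAS (46.5 to 61.5 CPM).

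By 44 DAS the picture was mixed. Against Col-0, 9 genes were higher and 5 lower in *#17* (all genes: 19.8% and 20.6%), with a median log2FC of 0.03, and 16 were higher and 4 lower in *#25* (all genes: 22.8% and 23.2%), with a median of 0.19. Between the lines directly, 0 of the 42 genes were called (0 by DESeq2, all genes: 0.00976% and 0%). At an unadjusted p below 0.05 there were 7, beside 7.45% of all genes. Scaling by library size alone gave 13 higher and 2 lower in *#17* and 23 and 2 in *#25*, and moved the median of all genes by 0.17 and 0.19. Without *#25* replicate 2 there were 13 calls in *#25* in place of 20.

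The leaf markers moved with this comparison: they summed to 6851 to 9297 CPM in *#17* and 5341 to 6507 CPM in *#25* at 44 DAS, against 18055 to 23061 CPM in Col-0 and 25182 to 29012 CPM in *slim1-cr*. At 37 DAS the sums were 11809 to 23113 CPM in *#17*, 20478 to 28404 in *#25* and 20156 to 22156 in Col-0, with all 4 markers above 0 in every group. The flower markers at 44 DAS summed to 3.82 to 26.3 CPM in *#17*, 4.06 to 17.0 in *#25* and 20.2 to 27.5 in Col-0. The part of these shifts in the values of the autophagy genes was not tested, apart from a fit with the flower markers as a covariate. At 44 DAS that fit kept 14 of 14 calls in *#17* and 14 of 20 in *#25*, where it called 12 higher and 4 lower.

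*ATG8B* (AT4G04620, chromosome 4, 2328442 to 2330590, minus strand) was the member with the largest difference at 44 DAS. It stood at 49.2, 54.5 and 46.5 CPM in *#17* and 52.7, 61.5 and 57.3 CPM in *#25*, beside 14.6, 18.4 and 21.1 CPM for Col-0 and 14.1, 14.3 and 10.8 CPM for *slim1-cr*. The lowest library of the overexpressors held more than all libraries of the other genotypes, with log2FC over Col-0 of 1.48 (SE 0.15, adjusted p = 6.04e-05) and 1.70 (SE 0.15, adjusted p = 2.16e-05). *ATG8A* stood at 62.9, 78.5 and 55.4 CPM and 75.7, 83.8 and 73.7 CPM beside 37.2, 49.5 and 48.3 CPM (log2FC 0.55, SE 0.15, adjusted p = 0.0125, and 0.82, SE 0.15, adjusted p = 0.0013). *ATG8G* was higher by 0.69 and 0.80 (SE 0.12 in each) and *ATG8D* by 0.34 and 0.60 (SE 0.08). For these genes too the lines stood clear of Col-0.

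*ATG8E* lay on the other side. It stood at 62.0, 60.3 and 44.7 CPM in *#17* and 59.6, 74.6 and 47.4 CPM in *#25*, below the 114, 114 and 100.1 CPM of Col-0 and the 128, 120.0 and 85.9 CPM of *slim1-cr*. No library of the lines reached the other genotypes (log2FC -0.96, SE 0.19, adjusted p = 0.00308, and -0.82, SE 0.19, adjusted p = 0.00596). The change of the difference between the days was tested after the values had been seen: from 37 to 44 DAS it fell by 2.47 on the log2 scale in *#17* (SE 0.30, adjusted p = 5.17e-07) and by 1.84 in *#25* (SE 0.30, adjusted p = 1.48e-05). *ATG8C*, *ATG8F* and *ATG8I* were not called in either line at 44 DAS, and *ATG8H* was called in *#25* only, where its libraries (15.5 to 30.4 CPM) overlapped those of Col-0 (11.4 to 16.6 CPM) and the call was lost with the flower marker covariate, with the compared groups only and without Col-0 replicate 1 or 3 or *#25* replicate 1 or 2.

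The family's summed level hid this exchange. Summed over the 9 genes it was 461 ± 30.6 CPM per kb (mean ± SD, n = 3) in Col-0 at 44 DAS, 428 ± 57.1 in *slim1-cr*, 441 ± 48.4 in *#17* and 482 ± 36.7 in *#25*, so the genotypes lay within each other's spread. At 37 DAS the sums were 226 ± 19.2, 192 ± 7.22, 373 ± 17.9 and 306 ± 7.55 CPM per kb in the same order, and at 30 DAS 231 ± 32.8 to 265 ± 26.3 CPM per kb, *EV* included. The *slim1-cr* libraries of 30 DAS held 268, 254 and 184 CPM per kb, beside 240, 216 and 241 in Col-0. *ATG8B* made up 9.08% and 9.46% of the 44 DAS sum in the overexpressors, beside 3.11% in Col-0 and 2.44% in *slim1-cr*. *ATG8E* made up 13.7% and 13.6% of it, beside 26.02% and 28.2%, whereas at 37 DAS its share was 25.8% and 22.1% in the overexpressors, beside 15.01% and 10.5%. At 30 DAS its share was already lower in the overexpressors, at 10.6% and 13.4%. Col-0 had 17.3%, *slim1-cr* 16.02% and *EV* 18.02% at that age. Shares were not tested. *ATG8F*, at 20.4 to 31.2% of the sum, led the family in every group but the overexpressors at 37 DAS, where *ATG8E* led.

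**Figure D5:**
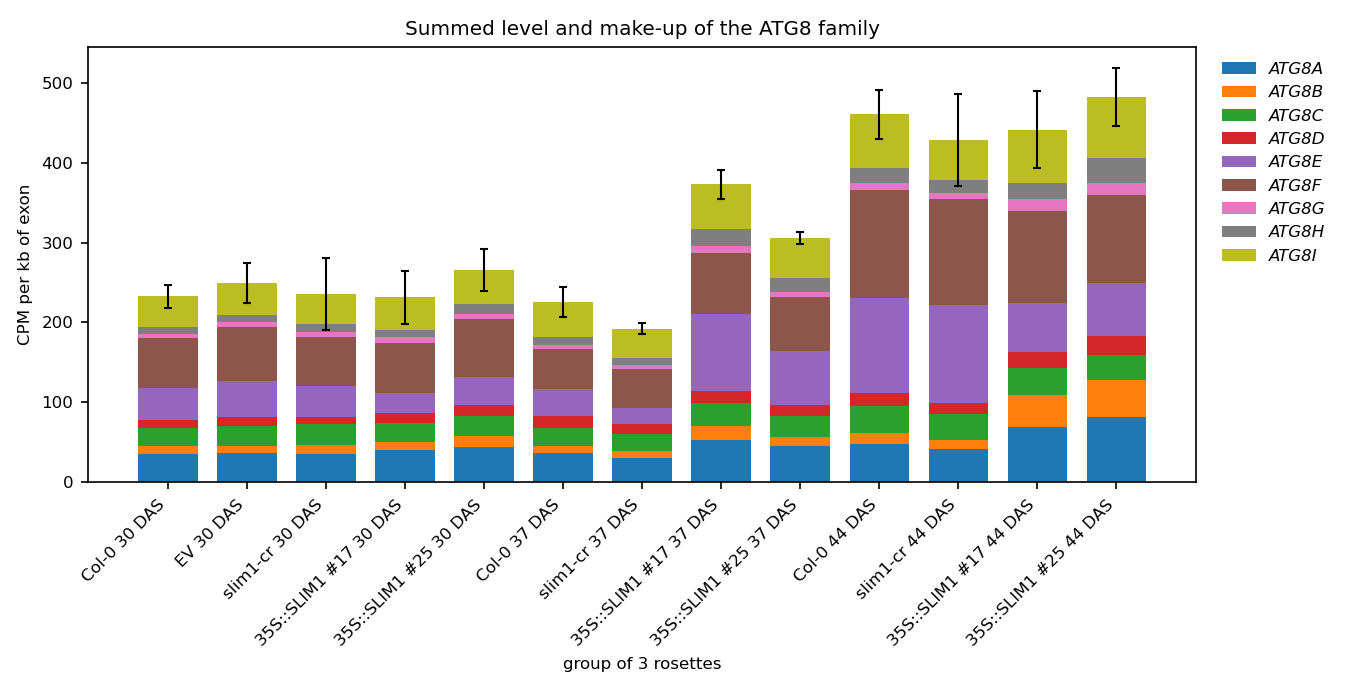
Summed level of the *ATG8* family per group in CPM per kb of exon (bar height is the mean of 3 libraries, error bars are the SD of the sum), split by gene in colours. The sums at 44 DAS run from 428 to 482 CPM per kb, with less *ATG8E* and more *ATG8A* and *ATG8B* in the overexpressors than in Col-0.

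Among the other steps at 44 DAS the largest difference was that of *ATG18D* (AT3G56440, chromosome 3, 20926001 to 20928993, plus strand). It stood at 2.37, 3.33 and 2.96 CPM in *#17* and 2.81, 2.86 and 2.44 CPM in *#25*, beside 8.67, 8.34 and 7.27 CPM for Col-0 and 7.85, 9.11 and 6.01 CPM for *slim1-cr*. The ranges were far apart, with log2FC of -1.47 (SE 0.18, adjusted p = 0.000161) and -1.55 (SE 0.18, adjusted p = 9.16e-05). *ATG18D* supplied 1.5% and 1.31% of the *ATG18* family's level per kb in the lines and 4.43% in Col-0. It was the only *ATG18* gene called lower, while *ATG18G* was higher by 0.40 and 0.42 (SE 0.12) and *ATG18F*, *ATG18H* and *ATG9* were higher in *#25* only (log2FC 0.55, 0.43 and 0.50). The call of *ATG18F* was lost with the flower marker covariate and without Col-0 replicate 1 or 3 or *#25* replicate 1 or 2 (0.42 to 0.75).

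In the initiation complex *ATG1A* was now the higher one. It stood at 29.9, 41.7 and 34.0 CPM in *#17* and 45.8, 39.7 and 42.02 CPM in *#25*, beside 20.7, 24.1 and 26.7 CPM for Col-0 and 20.2 to 21.0 CPM in *slim1-cr*. All libraries of the lines were above those of Col-0 (log2FC 0.58, SE 0.13, adjusted p = 0.00508, and 0.87, SE 0.13, adjusted p = 0.000408). Col-0 had lost *ATG1A* between 37 and 44 DAS (log2FC -0.49, SE 0.11), and the lines had gained it (0.38 and 0.50). *ATG13A* stayed higher, at 49.4 to 66.3 CPM and 52.2 to 60.3 CPM beside 40.3 to 42.3 CPM (log2FC 0.47 and 0.50, SE 0.11 in each), and so did *ATG1C* (0.28 and 0.30, SE 0.07).

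In the lipid kinase complex *ATG14B* was higher at 44 DAS by 0.36 and 0.38 (SE 0.11 in each) and *ATG14A* in *#25* only, at 17.7 to 23.9 CPM beside 13.97 to 16.6 CPM (log2FC 0.54, SE 0.15, adjusted p = 0.0118). The *ATG14A* call was lost without *#25* replicate 2, and those of *ATG14B* without Col-0 replicate 1 or 3 or *#17* replicate 1 or 2 or with the compared groups only in *#17*, and without Col-0 replicate 1 or *#25* replicate 3 or with the flower marker covariate in *#25*. *ATG7*, which activates ATG8, stood at 37.5, 45.3 and 29.8 CPM in *#25*, above the 20.4, 23.7 and 23.3 CPM of Col-0 (log2FC 0.77, SE 0.20, adjusted p = 0.00898). In *#17* it spread over 19.8, 34.0 and 26.7 CPM and was not called. *ATG4B* was higher in *#25* only (log2FC 0.26, SE 0.09, adjusted p = 0.0401). *ATG4A* was lower in each line, at 39.03 to 48.6 CPM and 37.9 to 49.2 CPM beside 53.5 to 64.8 CPM (log2FC -0.42 and -0.40, SE 0.12), the reverse of 37 DAS. These calls were lost without Col-0 replicate 2 or 3 or replicate 3 of the line, and with library size alone (-0.50 to -0.20 over the alternatives of both).

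The ATG12 system held no gene that was higher at 44 DAS. *ATG16* was lower by 0.34 and 0.29 (SE 0.10 in each), at 21.3 to 24.7 CPM in *#17* and 23.7 to 24.2 CPM in *#25* beside 27.7 to 31.8 CPM, and *ATG12B* in *#17* only (1.75 to 2.48 CPM beside 2.89 to 2.99 CPM, log2FC -0.46, SE 0.16, adjusted p = 0.0379). The *ATG16* calls were lost with library size alone, and without Col-0 replicate 3 or *#17* replicate 3 in *#17* and without any 1 library other than Col-0 replicate 1 or with the flower marker covariate in *#25*. That of *ATG12B* was lost in 9 of 15 alternatives, among them library size alone, no filter, the replicate block and each left-out library other than *#17* replicate 1. The receptors *NBR1* (472 to 543 CPM and 530.0 to 604 CPM beside 428 to 493 CPM) and *ATI1* were not called.

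A comparison without Col-0 set the mean of both overexpressors against *slim1-cr*. At 30 DAS 8 genes were higher and 0 lower (all genes: 5.27% and 5.08%), namely *ATG13B*, *ATG2*, *ATG18A*, *ATG18G*, *VPS15*, *ATG6*, *ATG8D* and *NBR1*, with log2FC of 0.25 to 0.58. That count was 0 without *slim1-cr* replicate 1 and 4 with the replicate number as a block. With 1 library left out, 0 to 7 genes were higher and 0 to 2 lower. At 37 DAS 34 were higher and 0 lower (25.7% and 25.9%), with a median log2FC of 0.50, and at 44 DAS 24 were higher and 5 lower (31.5% and 33.4%), with a median of 0.35. *ATG8B* had the largest value at 44 DAS (log2FC 2.03, SE 0.14, adjusted p = 1.34e-06) and *ATG8E* at 37 DAS (2.01, SE 0.19, adjusted p = 2.62e-05). *NBR1* was higher on all 3 days, by 0.41, 0.51 and 0.67 (SE 0.12, 0.11 and 0.13).

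Whether the difference from Col-0 changed with age was tested in the fit of all libraries. Between 30 and 44 DAS it changed upward for 4 genes and downward for 2 in *#17* (all genes: 11.7% and 15.1%) and for 4 and 5 in *#25* (11.7% and 18.5%), with 10 and 1 in either line under library size alone. In *slim1-cr* 1 gene, *ATG13B*, changed upward (4.35% and 2.46%). *ATG8B* and *ATG1A* went upward and *ATG18D* downward in each line (*ATG8B* 1.47 and 1.22, *ATG1A* 0.63 and 0.75, *ATG18D* -1.16 and -1.40). Between 37 and 44 DAS, a test chosen after the values had been seen, the counts were 2 upward and 17 downward in *#17* (14.4% and 18.9%) and 9 and 16 in *#25* (18.1% and 27%). Under library size alone these became 7 and 9, and 16 and 4. In *slim1-cr* edgeR called 0 (all genes: 0% and 0.0143%), with 2 unadjusted and 0 by DESeq2.

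Of 34 related genes that act around the core, 33 were tested. In Col-0 17 of them rose and 2 fell from 37 to 44 DAS (all genes: 24.5% and 26.8%). At 37 DAS 12 were higher and 2 lower in *#17* (19.8% and 17%), and 4 and 2 in *#25* (12.5% and 9.74%). At 44 DAS 6 and 4 were called in *#17* (19.8% and 20.6%), and 8 and 3 in *#25* (22.8% and 23.2%). The counts of higher genes in *#25* at 37 DAS and in each line at 44 DAS were near the share over all genes. The SnRK1 kinase, known to promote autophagy when energy is short, has a regulatory subunit gene, *KINBETA1*, that went both ways as *ATG8E* did. Its mean was 112 and 101 CPM in the overexpressors at 37 DAS beside 39.5 CPM in Col-0 (adjusted p = 0.00112 and 0.00258), and 60.1 and 49.6 CPM beside 153 CPM at 44 DAS (-1.34 and -1.60, SE 0.15). *KINBETA2*, another such subunit, was lower at 37 DAS (-0.29 and -0.38) and higher at 44 DAS (0.79 and 0.74), and *KIN11*, a catalytic subunit, was lower at 44 DAS (-0.34 and -0.31).

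Further along the route, *EXO70B1*, an exocyst subunit linked to autophagic transport to the vacuole, was higher at 37 DAS (132 and 231 CPM beside 59.0 CPM, log2FC 1.16 and 1.95, SE 0.11) and at 44 DAS (0.66 and 0.48, SE 0.14). *VTI12*, a SNARE of membrane fusion (0.98 and 0.58), and *ATI2*, the partner copy of *ATI1* (0.61 and 0.30), were higher at 37 DAS. Of the vacuolar protease genes, *GAMMA-VPE* was higher in *#17* at 37 DAS (log2FC 2.23, SE 0.46) and in each line at 44 DAS, at 2384 and 2078 CPM beside 718 CPM in Col-0 (log2FC 1.74 and 1.57, SE 0.26). *CATHB3* was higher at 44 DAS by 1.27 and 1.60 (SE 0.19). *ALPHA-VPE* (1.70 and 2.18, SE 0.55) and *TSPO*, a receptor that brings aquaporins to autophagy (2.08 and 2.21, SE 0.46), had means under 3 CPM in every genotype, and *SINAT1*, a ubiquitin ligase that acts on ATG6 and ATG13, was lower (-0.28 and -0.34). In *slim1-cr* the related genes called were all lower: *RAPTOR1A* (-0.50), *RAPTOR1B* (-0.49) and *SNF4* (-0.29) at 30 DAS, *DSK2B* (-0.39) at 37 DAS and *GAMMA-VPE* (-0.99) at 44 DAS. RAPTOR carries the targets of the TOR kinase, which restrains autophagy.

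The promoters were searched for sequences tied to SLIM1, in the 1000 bases before each gene start (TAIR10.1, both strands). GAGAC, the core of the sulfur-responsive element SURE, was in 30 of 43 (69.8%) beside 71.7% of all 27443 promoters. The TEBS element was in 10 (23.3%) beside 24.5%, and TGACG, the core of TGA factor sites, in 28 (65.1%) beside 54.1%. The binding motif EBM, which contains the TEBS core, was in 3 of 43 (6.98%) beside 5.98% of all promoters. The study counts SURE and TEBS among the known SLIM1 binding motifs too, so other members also hold candidate sites. Only the 3 EBM sites are printed, on the gene's strand with the motif in capitals.
ATG18C: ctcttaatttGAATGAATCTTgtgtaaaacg
ATG3: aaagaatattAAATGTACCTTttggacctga
ATG8F: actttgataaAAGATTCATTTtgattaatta
The sites lie at chr2:17031671-17031701 (721 bases before *ATG18C*), chr5:24736994-24737024 (128 before *ATG3*) and chr4:9309138-9309168 (610 before *ATG8F*, motif on the other strand). All 3 genes were higher in each overexpressor at 37 DAS, but so were 18 of the 42 tested genes, these 3 included (all genes: 10%). None of the 3 was called against Col-0 at 44 DAS, while *ATG8B*, *ATG8E* and *ATG18D* had no EBM match in this window. A link between motif and level was not tested. A match is a string of letters, and binding was not measured.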

How the data were processed

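The authors sequenced polyA, strand-specific libraries on DNBseq (paired ends), cleaned reads with SOAPnuke, and mapped and counted them in CLC Genomics Workbench against TAIR10 with Araport11 genes. The deposited values used here are these raw read counts per gene, whole numbers with no normalization, 38.4 to 46.2 M a library. A second deposited table of median-ratio normalized values was not used. All 39 sample columns matched a label (columns not mapped: 0), and groups follow the labels. The submitters' processing notes name DESeq2 1.40.2.

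Counts were tested with edgeR 4.0.16 (R 4.3.3) by the quasi-likelihood test, with TMM factors, filterByExpr, robust dispersion and Benjamini-Hochberg adjustment over all genes tested (20274, 20296 and 20499 at 30, 37 and 44 DAS, and 21040 over all libraries). Comparisons within a day used the libraries of that day, and age changes and interactions used all 39. "Called" means an adjusted p below 0.05, and SE is that of the log2FC. Alternatives were RLE factors, library size alone, no filter, at least 1 CPM in at least 3 libraries, DESeq2 1.42.0, the replicate block, the flower markers as a covariate, fits on the compared groups only or on all 39 libraries, *EV* in place of Col-0, and leaving out each library. The code was tested on simulated data. The p-values measure the spread between replicates within groups, estimated over all groups in a fit. Replicate pairs differed by 8.55 to 162 times the sampling noise (chi-square per degree of freedom), so all were kept as separate samples.

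The genes and lists were chosen with earlier results of these data known. Values in single libraries are given for genes called in the same direction in the overexpressors or in *slim1-cr*, the leading gene of each step, *NBR1*, *ATI1*, the *ATG8* family and the 5 largest age changes in Col-0. CPM per kb uses exon lengths of RefSeq TAIR10.1, whose symbols matched 32 of 43 genes, and sequences come from that genome. The result of 1 marker list is not reported here.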

Additional observations from a re-analysis of the deposited data

Results flagged for a closer look

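Differences from Col-0 that changed with age are listed here with the change in log2FC, each past the interaction test in edgeR. Between 30 and 44 DAS the values were 0.63 for *ATG13B* in *slim1-cr*. In *#17* they were 0.63 for *ATG1A*, 0.43 for *ATG13A*, -1.16 for *ATG18D*, 0.38 for *ATG14B*, -0.41 for *ATG16* and 1.47 for *ATG8B*. In *#25* they were 0.75 for *ATG1A*, 0.47 for *ATG9*, -1.40 for *ATG18D*, -0.33 for *ATG6*, 0.67 for *ATG7*, -0.49 for *ATG4A*, -0.44 for *ATG16*, 1.22 for *ATG8B* and -0.51 for *ATG8F*.

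Between 37 and 44 DAS, a contrast chosen after the values had been seen, *#17* had 0.87 for *ATG1A*, -1.42 for *ATG18D*, -1.47 for *ATG4A* and -2.47 for *ATG8E*. The same values in *#25* were 0.98, -1.89, -1.34 and -1.84.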

How the results depend on the processing

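Of 30 counts of genes called, 29 stayed within 1.5 times under RLE factors, 24 under library size alone, 29 without the filter, 30 with at least 1 CPM in at least 3 libraries, 28 with the replicate block, 30 with the flower marker covariate and 24 with DESeq2. No named gene turned its direction in 977 alternatives, and 126 of them lost its call. Among all genes of the set, only *ATG6* in *#25* (change from 37 to 44 DAS) had a called value whose sign turned, under library size alone. The cause of these shifts was not tested.

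At 30 DAS the count for *slim1-cr* against Col-0 (2) became 1 under library size alone and 0 in a fit of the compared groups only. That for *#17* (0) became 1 with DESeq2, with the compared groups only and with *EV* in place of Col-0. That for *#25* (0) became 3 under library size alone, 5 with DESeq2, 9 with the compared groups only, 3 with all 39 libraries and 1 with *EV*. The overexpressors against *slim1-cr* (8) gave 4 under library size alone. For *slim1-cr* at 37 DAS (2), DESeq2 gave 7, the compared groups only 0 and all 39 libraries 5. *#25* against *#17* at 37 DAS (4) gave 8 with DESeq2 and 0 with the compared groups only. *#25* against Col-0 at 37 DAS (18) gave 12 under library size alone. For *slim1-cr* at 44 DAS (1), RLE factors, library size alone, no filter and the compared groups only gave 0, DESeq2 5 and all 39 libraries 9. The change from 30 to 44 DAS for *slim1-cr* (1) gave 0 under library size alone and 2 with DESeq2 and with *EV*, and that for *#17* (6) gave 11 and, with *EV*, 10. From 30 to 37 DAS in *slim1-cr*, RLE factors gave 1 higher and 4 lower.

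With 1 library left out, the counts against Col-0 ran from 0 to 5 for *slim1-cr*, 0 to 1 for *#17* and 0 to 1 for *#25* at 30 DAS, from 0 to 3, 22 to 28 and 12 to 17 at 37 DAS, and from 0 to 6, 10 to 13 and 13 to 18 at 44 DAS. The 5 for *slim1-cr* at 30 DAS, without its replicate 3, were 3 higher and 2 lower. *#25* against *#17* gave 0 to 4 at 30 DAS and 1 to 8 at 37 DAS, and the overexpressors against *slim1-cr* 0 to 7, 29 to 37 and 26 to 30 in order of age. Age changes gave 3 to 9 and 30 to 32 in Col-0, 1 to 7 and 26 to 32 in *slim1-cr*, 24 to 33 and 11 to 21 in *#17*, and 10 to 13 and 25 to 29 in *#25*. Changes of the difference from 30 to 44 DAS gave 0 to 6, 4 to 8 and 7 to 9, and from 37 to 44 DAS 0, 14 to 20 and 19 to 24, for *slim1-cr*, *#17* and *#25*.

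The labels do not pair samples by replicate number, and rosettes of different days are different plants. For same-numbered libraries, deviations from the group means correlated above 0.1 in all pairs in 1 of 21 comparisons, Col-0 from 37 to 44 DAS. Single correlations ran from -0.548 to 0.621 over the 21, so this does not show a pairing. In the Col-0 comparison the replicate block left the count at 33. The block gave 1 in place of 2 calls for *slim1-cr* at 30 DAS and 4 in place of 8 for the overexpressors against *slim1-cr*. For *slim1-cr* at 44 DAS the block also called 1 gene, but not *ATG2*.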
